A study of Danio rerio with 2 samples.

Results

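The fast muscle myosin heavy chain genes of zebrafish lie side by side on chromosome 5, and the RNA read depth over this cluster was compared between larvae kept in the solvent DMSO and larvae exposed to valbenazine, an inhibitor of the vesicular monoamine transporter. The cluster was taken as all 160 windows of 1 kb from 32180001 to 32340000 of chromosome 5 (GRCz11), of 1345132 windows in each library. The interval was chosen by position, with the measured depths and ratios of its windows already known from earlier work on these data, so its level and its ratios are given as a description, with no test.

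Both groups were wild-type (WT) larvae, sampled as whole bodies. The DMSO group was 1 pool of 50 larvae and the valbenazine group was 1 pool of 50 larvae exposed at 10 µM, with 1 library per pool. The sources used here give neither the age of the larvae nor the length of the exposure. With a single library per group there is no measure of replicate spread, and every difference below is between these libraries. The study's title asks about body growth and growth hormone signalling.

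Myosin heavy chain is the motor protein of the thick filament: its head binds actin and splits ATP, and its tail packs with others into the filament. Fast fibres make up most of the trunk muscle of a zebrafish larva, and their heavy chains are encoded by a family of closely related tandem genes. The genes named for the cluster, myhz1.1, myhz1.2 and myhz2, encode fast skeletal muscle heavy chains. In the RefSeq gene table of another assembly, GRCz12tu, these 3 genes belong to an unbroken row of 6 genes on chromosome 5, in the order myhz2, myhc4, myha, myhz1.3, myhz1.2 and myhz1.1, with taok3b before the row and hspb15 after it. All 6 symbols are those of myosin heavy chain genes.

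The deposited tracks name no genes, and no gene positions on GRCz11 were used here. Windows are therefore described by position and none is assigned to myhz1.1, myhz1.2, myhz2 or another gene of the row. The copies are alike in sequence, and the sources used here do not say how reads that match several of them were placed, so depth could be divided between copies. Strand is not recorded either.

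Values are read depths per window as deposited, and scaled depth is that depth after both libraries were brought to the same summed depth. The log2 ratio is that of valbenazine to DMSO on scaled depth plus a pseudocount of 9.03, and windows with a mean scaled depth of at least this value were compared. A summed depth adds window values, and since the sources do not say how a window value was made, a share of summed depth need not be a share of reads or of RNA. The whole libraries had a summed depth of 58693226.5 in DMSO and 61750003.5 in valbenazine.

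The cluster took up a large share of the signal of chromosome 5 in both libraries. Its summed depth was 1154306.5 in DMSO and 1278336 in valbenazine. This was 1.97% of the summed depth of the DMSO library and 2.07% of that of the valbenazine library, in 0.0119% of the windows. Of the summed depth of chromosome 5 alone, the cluster held 31.0% in DMSO and 31.4% in valbenazine. For scaled summed depth the log2 ratio was 0.07, a 1.05-fold higher share after exposure, and it changed sign to -0.24 when the median ratio of all covered windows was set to 1. That median-ratio scaling lowers every log2 ratio, before the pseudocount, by 0.32. In whole-body RNA, a larger number of muscle cells and more RNA per muscle cell cannot be told apart.

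Nearly all of this signal came from 1 continuous stretch. From 32206001 to 32310000, 104 adjacent windows held 99.9% of the cluster's summed depth in either library. In the last of them, at 32309001, the depth was 1885 in DMSO but 2 in valbenazine, so it belongs to the stretch through DMSO alone. The stretch began abruptly: in the window at 32205001 the depth was 0 in both libraries, and in the next it was 808 in DMSO and 1413 in valbenazine. On its left lay 22 kb (32184001 to 32206000) in which the depth never exceeded 4 in DMSO or 2 in valbenazine. On its right lay 11 kb (32310001 to 32321000) with no depth above 5 in DMSO or 3 in valbenazine.

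**Figure D1:**
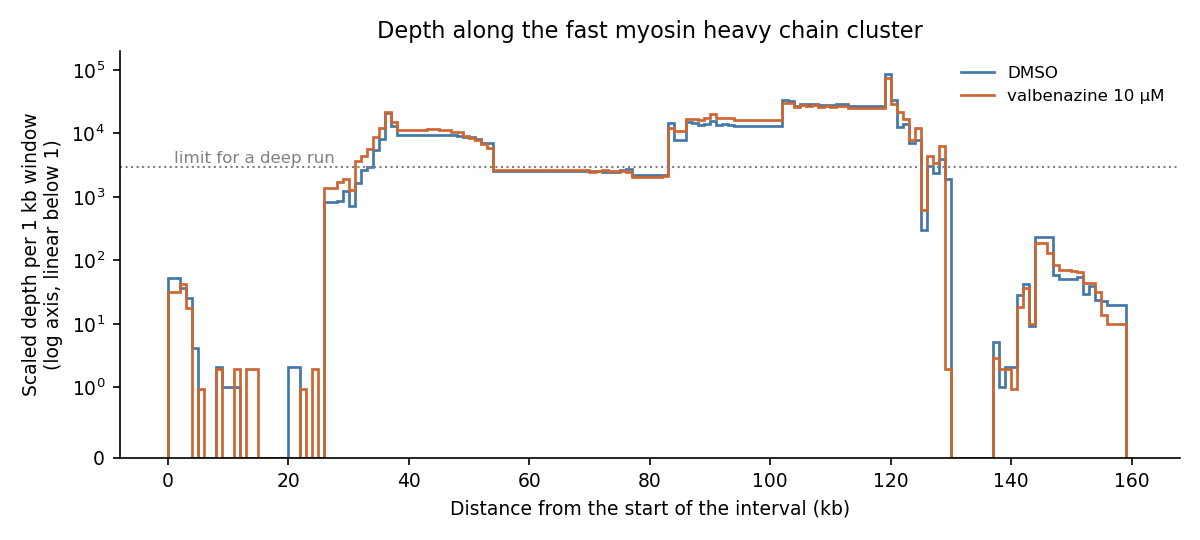
Scaled depth of each 1 kb window (log axis, linear below 1) against distance from the start of the interval, with 1 line per library. Both lines rise 26 kb from the start, stay high with a lower level in the middle, and peak together. The valbenazine line falls back to near 0 at 129 kb, 1 window before the DMSO line.

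Within the stretch, deep runs were defined as adjacent windows with a mean scaled depth of at least 3000. There were 4 such runs, of 22, 42, 1 and 1 kb, with 66 windows in all. The first, from 32212001 to 32234000, had a median depth of 9082.5 in DMSO and 11610.5 in valbenazine. Its deepest window, at 32216001, had 20414 and 22136, and its shallowest, at 32212001, had 2613 and 4471. The window just outside the limit, at 32211001, had 1636 in DMSO and 3720.5 in valbenazine. Of the 22 windows 18 were higher in valbenazine, the exceptions being the last 4. Among the 18, the windows at 32212001 and 32213001 reached the limit of 3000 only through valbenazine. Their scaled depths were 2681 and 2941 in DMSO, against 4360 and 5569 in valbenazine. Their higher ratios thus follow in part from the limit, and they enter the count and medians of deep windows.

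The second run, from 32263001 to 32305000, was the deepest part of the cluster. Its median depth was 14448 in DMSO and 19407.25 in valbenazine, with a range of 6976 to 85307 and of 8038.5 to 75087. It held 75.8% of the cluster's summed depth in DMSO and 73.6% in valbenazine. The median log2 ratio over its 42 windows was 0.16 (quartiles -0.10 and 0.32), but 22 windows were higher and 20 lower in valbenazine, so the median falls between unlike parts of the run. In the 25 windows that differed from both neighbours in both libraries the median was -0.05, below 0.

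The remaining deep runs were single windows near the right end. The window at 32306001 had a depth of 3013.5 in DMSO and 4498 in valbenazine (log2 ratio 0.50). The window at 32308001 had 3870 and 6560 (log2 ratio 0.69). Both kept a ratio above 0 under median-ratio scaling, at 0.19 and 0.37.

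The gaps between deep runs had depth in every window of both libraries. Since the sources do not say how a window value was made, this depth need not come from reads lying within a gap. The long gap, 29 kb from 32234001 to 32263000, had a median depth of 2485 in DMSO and 2667 in valbenazine. Its depth was nearly level, from 2122 to 2679 in DMSO and from 2134 to 2683 in valbenazine. In 13 adjacent windows the depth of each library did not change at all. The median log2 ratio of the long gap was 0.03 (quartiles -0.06 and 0.03). By the median ratio the libraries were closer in this gap than in either run beside it, but under median-ratio scaling they were farther apart, at -0.29 in the gap, -0.03 in the first run and -0.16 in the second. The gap at 32305001 was 1 window with a depth of 293 in DMSO and 629.5 in valbenazine, the shallowest of the stretch by the mean of both libraries. The gap at 32307001 had 2337 and 3451. Taken over all 31 gap windows the median log2 ratio was 0.03, and over the 66 deep windows it was 0.25.

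Much of the cluster consisted of level steps. Of the 104 windows of the stretch, 34 had exactly the depth of the window before them in both libraries. There were 5 plateaus of at least 3 identical windows, which together covered 35 kb. The longest was 13 kb at 2485 in DMSO and 2667 in valbenazine, from 32234001. Others stood at 9187 and 11779 for 5 kb from 32218001, at 2122 and 2134 for 4 kb from 32257001, at 12765 and 16726 for 8 kb from 32274001, and at 26693 and 25987 for 5 kb from 32293001. Such windows may carry the same reads and are not independent. Each still enters the medians, quartiles and window counts given here, except those for windows unlike both neighbours. In the long gap the 11 windows unlike both neighbours had a median log2 ratio of 0.006, against 0.03 over all 29. The share of deep windows that equalled the window before was 27.3% in the cluster and 26.7% in deep windows elsewhere in the genome. By depth the shares were less alike. At 3000 to 10000 they were 6.25% of only 16 windows in the cluster and 29.9% of 997 elsewhere. At 10000 or more they were 34% of 50 windows and 23.1% of 866. At 1000 to 3000, the depth of the longest plateau, they were 45.7% of 35 windows and 36.9% of 2652.

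The ratio of the libraries changed along the stretch. To describe this, the compared windows were split at each change of over 2-fold in mean scaled depth from 1 window to the next, a rule chosen after seeing the values, which gave 12 segments in the stretch. Of these, 9 had a median log2 ratio above 0 and 3 below, and under median-ratio scaling 6 were above 0.

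At the left edge the ratio was high. In the first segment, 5 kb from 32206001, the depth was 701 to 1193 in DMSO and 1312 to 1936 in valbenazine, and all 5 windows had more depth in valbenazine (median log2 ratio 0.73). The next 5 kb, from 32211001, climbed from 1636 to 7928 in DMSO and from 3720.5 to 12475 in valbenazine (median log2 ratio 0.70). Over these 10 windows the log2 ratio lay between 0.58 and 1.11, and under median-ratio scaling between 0.27 and 0.79, above 0 in 10 of 10.

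From 32212001 the edge windows also belong to the first deep run. In the rest of that run the ratio was lower than at the edge. The 18 kb from 32216001 had a median depth of 9148 in DMSO and 11705.5 in valbenazine, and the log2 ratio had a median of 0.24 (quartiles 0.05 and 0.29). Along it the log2 ratio was 0.04 in the first and deepest window, 0.29 on the plateau from 32218001 and -0.26 in the last window, at 32233001, where the depth was 6882 in DMSO and 6050.5 in valbenazine. Under median-ratio scaling the segment was at -0.08.

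The second deep run held a step between segments of unlike ratio. The 19 kb from 32263001 had a median depth of 12765 in DMSO and 16726 in valbenazine, a median log2 ratio of 0.32 (quartiles 0.31 and 0.33), and 18 of 19 windows were higher. The exception was its first window, at 32263001, with 14186.5 in DMSO and 12408 in valbenazine. Of the 19 windows, 8 formed the plateau from 32274001, and the 9 unlike both neighbours had a median log2 ratio of 0.30. In the adjoining 17 kb from 32282001 the median depth was 27385 and 26897, the median log2 ratio was -0.10 (quartiles -0.11 and -0.08), and 17 of 17 windows were lower. Where 0 falls rests on the scaling: under median-ratio scaling the segments were at 0.0016 and -0.41, and under TMM scaling, which uses trimmed log ratios, at -0.009 and -0.42, both below 0. From the first of these segments to the second the median depth rose 2.15-fold in DMSO and 1.61-fold in valbenazine. This comparison within each library does not depend on how the libraries are scaled.

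The tallest peak was a single window. At 32299001 the depth was 85307 in DMSO and 75087 in valbenazine, a log2 ratio of -0.26. In each library 25 windows of the genome were deeper than this one. The peak held 7.39% of the cluster's summed depth in DMSO and 5.87% in valbenazine. The window beside it, at 32300001, had 32335 and 29497 (log2 ratio -0.21).

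From 32301001 on, right of the peak, the ratio was again above 0 in all but the last window of the stretch. At 32301001 the depth was 12276 in DMSO and 21873.5 in valbenazine (log2 ratio 0.76), and at 32304001 it was 7532 and 12540.5 (log2 ratio 0.66). All 8 windows from 32301001 to 32309000 were higher in valbenazine, and 6 of 8 under median-ratio scaling. The last window of the stretch went the other way: at 32309001 the depth was 1885 in DMSO and 2 in valbenazine (log2 ratio -7.47). Its left neighbour was higher in valbenazine, as given above, and its right neighbour was at 0 in both libraries. The ratio of -7.47 rests on 1 edge window with little depth in valbenazine. It was -8.85 with a pseudocount 4 times smaller and -5.69 with a pseudocount 4 times larger.

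**Figure D2:**
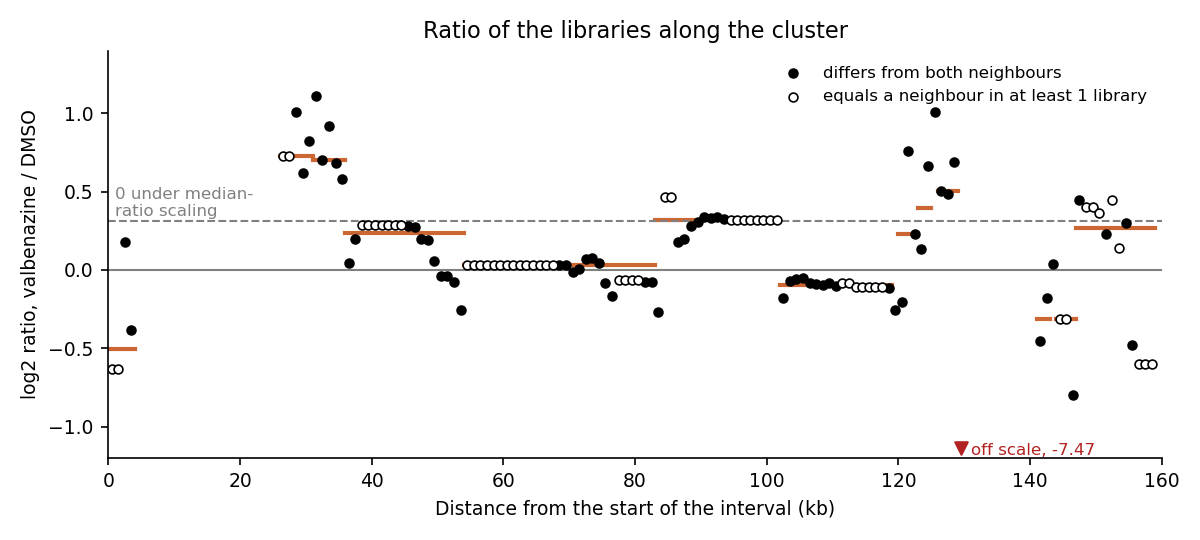
log2 ratio of valbenazine to DMSO for each compared window against distance from the start of the interval. Orange bars are medians of segments of at least 2 windows, open points equal a neighbour in at least 1 library, and the dashed line is where 0 falls under median-ratio scaling (0.32). The ratio is highest near both edges of the stretch, and the longest part below 0 runs from 102 to 121 kb. Shorter parts of the stretch below 0 include 50 to 54 kb and 75 to 84 kb. The last window of the stretch, at -7.47, is drawn off scale.

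The shares within the cluster, which need no scaling between libraries, differed along the same segments. The 17 kb segment from 32282001 held 41.0% of the cluster's summed depth in DMSO and 36.4% in valbenazine, a difference of -4.597 percentage points. The 19 kb segment from 32263001 went from 21.1% to 24.4%, a difference of 3.32 points. The 10 kb of the left edge held 0.375% and 1.76% in DMSO in its first and second 5 kb, against 0.612% and 2.76% in valbenazine. The 18 kb segment from 32216001 had 14.9% and 15.95%, and the long gap 6.06% and 5.765%. Shares of a fixed total are tied to each other, so these differences are not independent.

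**Figure D3:**
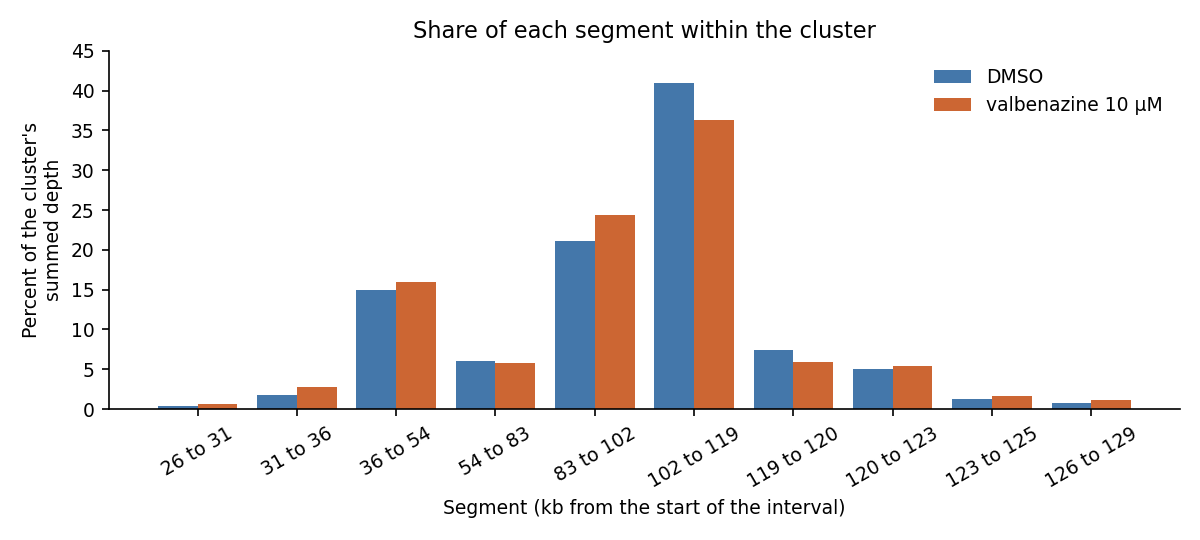
Percent of the cluster's summed depth in each segment that held at least 0.3% of it in DMSO, for 1 library per group, with segments named by distance from the start of the interval. The segment from 102 to 119 kb falls from 41.0% in DMSO to 36.4% in valbenazine, and the segment from 83 to 102 kb rises from 21.1% to 24.4%.

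Few windows of the cluster passed 2-fold. Among the 126 compared, 3 (2.38%) had a depth at least 2-fold higher after exposure, against 7.73% of all windows of the genome compared. Only 1 (0.794%) was at least 2-fold lower, near the genome share of 1.05%. The 3 higher windows lay at 32211001, 32305001 and 32208001, with log2 ratios of 1.11, 1.01 and 1.01, and the lower was the last window of the stretch. That window was compared through its depth in DMSO alone. Its scaled depth was 1934 in DMSO and 1.95 in valbenazine, the latter below the limit of 9.03. Of the 66 deep windows, 0 passed 2-fold in either direction, where 0.363% of all deep windows of the genome were that much higher and 1.04% that much lower. With shares this small, 0 among 66 windows does not set the cluster apart. At a limit of 1.5-fold, chosen after seeing the data, 13 windows were higher (10.3%, against 25.1% over the genome). At the same limit 7 were lower (5.56%, near the genome share of 4.61%). Of these 13, 9 were among the first 10 windows of the stretch and 4 lay right of the peak. Of the 7 lower, 6 lay outside the stretch, where depth was low, and 1 was the last window of the stretch. The windows compared over the genome had a median depth of 24 in DMSO and 33 in valbenazine. In the cluster these medians were 3441.75 and 5880.25.

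Among deep windows of the genome, the cluster stood on the higher side of the ratio. At a mean scaled depth of at least 10000, the cluster had 50 windows whose median log2 ratio was 0.25 (quartiles -0.09 and 0.32), and 60% were above 0. The 866 windows this deep elsewhere had a median of -0.28 (quartiles -0.47 and -0.09), and 15.2% were above 0. Other summaries of the same windows put the cluster nearer 0. The log2 ratio of scaled summed depth was 0.05 in the cluster and -0.26 elsewhere. In windows unlike both neighbours the medians were 0.11 and -0.23. At a depth of 3000 to 10000 the medians were 0.33 in 16 windows of the cluster and -0.15 in 997 elsewhere. At 1000 to 3000 they were alike, 0.03 in 35 windows and 0.02 in 2652. Windows of a cluster share reads, so no test of this difference was made. The deep windows elsewhere include a long run as well. On chromosome 9, 240 kb from 22099001 had a median scaled depth of 9837 and a median log2 ratio of -0.59.

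Counted by runs instead of windows, 148 runs of at least 5 deep windows lay elsewhere in the genome, whose log2 ratios had a median of -0.19 (quartiles -0.32 and -0.01), and 34 of them were above 0. The 22 kb run of the cluster, at 0.28, was exceeded by 3 of the 148, which were 5 to 7 kb long. The 42 kb run, at 0.16, was exceeded by 7 of the 148, and 2 of the 148 were longer. The rank of the 42 kb run rests on the median over all its windows: its log2 ratio of scaled summed depth was 0.03, and its windows unlike both neighbours had the median of -0.05 given above. For the 22 kb run these values were 0.23 and 0.20. Under median-ratio scaling both runs of the cluster were below 0, at -0.03 and -0.16, and 3 of the 148 others were above 0.

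**Figure D4:**
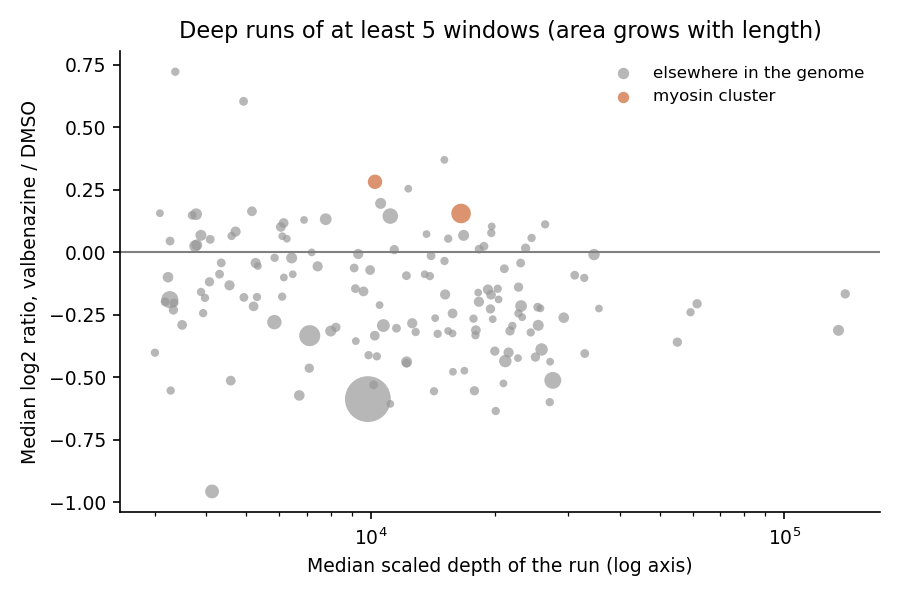
Median log2 ratio of each run of at least 5 windows with a mean scaled depth of at least 3000, against its median scaled depth (log axis); point area grows with length. The 2 runs of the cluster (orange) lie at 0.28 and 0.16, above most of the 148 runs elsewhere (grey), whose median is -0.19.

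Outside the stretch the interval was weakly covered. The first 4 windows had a median depth of 44 in DMSO and 32 in valbenazine. A second weak patch, 18 kb from 32321001, had 40 and 45, and its highest depth was 231 in DMSO and 194 in valbenazine. That patch had 9 windows higher and 9 lower in valbenazine, without a common direction. Just beyond the ends of the interval, the window at 32179001 had a depth of 52 in DMSO and 32 in valbenazine, and the window at 32340001 was at 0 in both.

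The flanks did not share the depth of the cluster. The 100 kb before the interval had a summed depth of 1152 in DMSO and 1357.5 in valbenazine, and the 100 kb after it had 5021.5 and 4565.5. Their log2 ratios of scaled summed depth were 0.16 and -0.21. By the same measure chromosome 5 without the cluster was at 0.05, near the 0.07 of the cluster itself. By the median over compared windows they were unlike, at 0.22 and 0.04, and all compared windows of the genome were at 0.25. The compared windows of chromosome 5 outside the cluster were shallow, with a median depth of 23 in DMSO and 30 in valbenazine.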

How the data were processed

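RNA of 2 pools of 50 whole larvae was sequenced, 1 library each (RNAiso Plus extraction and a SMARTER library kit, per the labels' protocols). Each library came as a signal track made by the authors, with a depth value for every 1000 bp of the genome. All values are 0 or multiples of 0.5, and the sources used here give neither the window rule nor the number of reads, so no counting interval could be formed. Per-base depths summarised as a median could look like this, in which case sums and the scaling rest on medians, not on reads. HISAT2 is named as aligner and the mouse build mm10 as genome, per the submitters' processing notes. The tracks instead have 25 numbered chromosomes whose window counts equal the GRCz11 lengths, taken from general knowledge, for 25 of 25. Positions are counted from 1. The GRCz12tu gene table places genes beyond the last window on 24 of 25 chromosomes and gave gene order only, with 3 of 3 named genes matched. No sequences were used.

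Libraries were scaled to the mean of their summed depths. The pseudocount of 9.03 is the median, over all windows with signal in at least 1 library, of the mean scaled depth. The members and rules were chosen with earlier results of these data known. Every deep run, gap and segment was described, and the 5 highest and 5 lowest windows were ranked. Alternatives were median-ratio scaling, a trimmed mean of log ratios (TMM, trimming 30% of ratios and 5% of levels at each end), other pseudocounts, no depth filter, deep limits of 1000 and 10000, narrower intervals, a 1.5-fold limit, and windows unlike both neighbours. The scaling, the ratio and the 2-fold limit were tried on simulated windows, drawn independently of each other, with large changes planted. That trial does not bear on plateaus, segments or small ratios. Python 3.11.15, numpy 2.4.6, pandas 2.3.3 and matplotlib 3.10.9 were used.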

Additional observations from a re-analysis of the deposited data

How the results depend on the processing

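No paired analysis was possible because each group has a single library, and none could be left out. The direction of the 4 log2 summaries of the cluster that follow rests on scaling. Single segments did not all turn. Of the 9 segments of the stretch above 0, 6 stayed above under median-ratio scaling and 5 under TMM scaling. The median log2 ratio of its compared windows was 0.04, but -0.28 under median-ratio scaling and -0.29 under TMM scaling. The log2 ratio of summed depth was 0.07, then -0.24 and -0.25. The median of the deep windows was 0.25, then -0.061 and -0.071, and that of the gaps 0.03, then -0.29 and -0.30. These scalings shift all log2 ratios before the pseudocount by -0.32 and -0.33, which by construction turns values this near 0. With a deep limit of 1000 the deep windows, now including the long gap, gave 0.042, and the 2 windows left as gaps had a median of 0.92. Windows at least 2-fold different numbered 4 (3 higher, 1 lower). Under either other scaling there were 2, with 0 higher and 2 lower. A pseudocount 4 times larger gave 2 in all, with 1 higher. At 1.5-fold there were 20, with 13 higher and 7 lower. None of these 4 log2 values moved by more than 0.1 without the depth filter, with another pseudocount or in windows unlike both neighbours. Some of these checks could not have moved them. The ratio of summed depth uses neither the pseudocount nor the filter. The deep and gap windows all passed the filter, and the pseudocount is small against their depth. Narrower ends of the interval, run for the median of the compared windows alone, moved that median by less than 0.1 too. Single deep runs and segments moved by over 0.1 in 21 of 21 cases under either other scaling, in 2 with a pseudocount 4 times smaller and in 3 with a larger one. The number of reads behind a depth is unknown, which limits what the weakly covered windows can show.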

Other observations

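The next covered stretch after the cluster, in the 100 kb that follow it, ran from 32345001 to 32355000 at a lower depth than the myosin stretch. Its last window, at 32354001, had a depth of 557.5 in DMSO and 510 in valbenazine, and the window after it had 2 and 4. Of the 10 windows, 1 was higher in valbenazine by the log2 ratio, the first, at 32345001 (134 and 202, log2 ratio 0.49).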
